A study of Homo sapiens with 6 samples.

Results

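Epithelial to mesenchymal transition (EMT) regulators were examined as 10 named genes of the 61228 in the deposited count and TPM tables, taken by symbol: *CDH1*, *CDH2*, *VIM*, *SNAI1*, *SNAI2*, *ZEB1*, *ZEB2*, *TWIST1*, *EPCAM* and *ESRP1*. All 10 were found in both tables. RNA-seq was carried out on HBE cells (HBECs), an immortalized line of human bronchial epithelium with wild-type genotype. All 6 libraries came from cells exposed for 24 h to cockroach extract (CRE), an airway allergen. In 3 libraries CRE was the only agent, and in the other 3 (CRE + VAF347) the cells were also given VAF347, a small-molecule agonist of the aryl hydrocarbon receptor (AhR), which the study's methods describe as a pre-treatment. Cells without CRE and cells given VAF347 alone were not analysed here, so every difference is one between CRE-exposed cells with and without the agonist. A single immortalized line stands for the airway epithelium, and nothing in the labels says that the replicates were separate cultures. The p-values therefore measure only the spread between these libraries, which may be technical.

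EMT is the programme by which epithelial cells loosen their junctions, lose apical-basal polarity and take on migratory, fibroblast-like features. Its core transcription factors, of the SNAIL, ZEB and TWIST families, bind E-box sequences and repress *CDH1* and other epithelial genes, while mesenchymal genes such as *VIM* and *CDH2* come on. In the airway the programme is studied in wound repair and in the remodelling seen in asthma, and partial states that keep both kinds of marker are common in cultured epithelium.

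The libraries held 8873160 to 10750283 estimated counts. After removal of genes with low counts, 15373 genes were compared by the quasi-likelihood test of edgeR, and a gene was called at an adjusted p under 0.05 with an absolute log2 fold change over 0.5. Levels are given as normalized counts per 1000000 counts (CPM) when libraries are compared, and as TPM, which also corrects for transcript length, when genes are compared. The AhR response genes *CYP1A1*, *CYP1B1*, *TIPARP* and *AHRR* were all called higher with VAF347. Bronchial markers differed widely. With CRE, the keratin *KRT8* had 1735 ± 38.3 CPM (SD, n = 3), the basal cell keratin *KRT5* 15.9 ± 1.47 and the ciliated cell regulator *FOXJ1* 1.73 ± 0.32. The club cell gene *SCGB1A1* had 0 counts in every library, and the basal cell regulator *TP63* had 1 count in one library of each group.

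The epithelial members stood far above the mesenchymal ones in both groups. With CRE, *EPCAM*, an epithelial surface adhesion molecule, had 544 ± 59.9 TPM (SD, n = 3) and *CDH1*, which encodes E-cadherin of the adherens junction, had 286 ± 55.5. *ESRP1*, an RNA-binding protein that directs epithelial splicing, followed at 79.3 ± 12.02. Next came the transcription factor *TWIST1* at 10.3 ± 1.26, the intermediate filament gene *VIM* at 6.20 ± 0.63, *SNAI2* (SLUG) at 4.98 ± 0.64, *SNAI1* (SNAIL) at 2.71 ± 0.40 and *CDH2* (N-cadherin) at 0.613 ± 0.150. The repressors *ZEB2* and *ZEB1* had mean levels of 0.114 and 0.0339 TPM. The ranges of neighbours in this order overlapped for *VIM* and *SNAI2* and for *ZEB2* and *ZEB1*, and were separate for all other neighbours.

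With CRE + VAF347 the order changed below *TWIST1*. *EPCAM* had 517 ± 1.15 TPM (SD, n = 3), *CDH1* 247 ± 13.5, *ESRP1* 86.7 ± 3.30 and *TWIST1* 8.30 ± 0.37. *VIM*, at 2.49 ± 0.85, then stood below *SNAI2* at 3.23 ± 1.14 and *SNAI1* at 2.54 ± 0.86, and above *CDH2* at 1.21 ± 0.43. Each of these 4 genes overlapped its neighbour in range, so their order is not resolved. *ZEB1* and *ZEB2* were again last, at 0.248 and 0.193 TPM, with overlapping ranges. The plot of TPM by library shows the gap of the 3 epithelial genes to the rest.

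**Figure D1:**
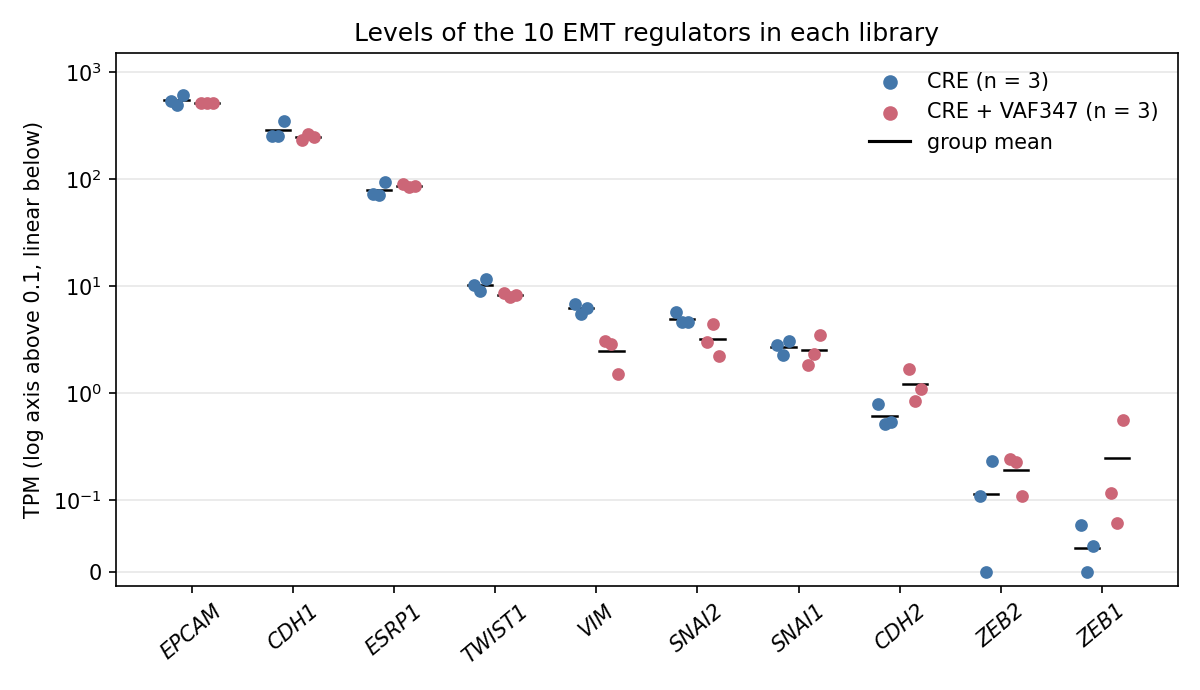
TPM of the 10 EMT regulators in each library, on a vertical axis that is logarithmic above 0.1 and linear below; blue points are CRE, red points are CRE + VAF347 (3 libraries each) and black bars are group means. *EPCAM*, *CDH1* and *ESRP1* lie above 70 TPM in every library, whereas *ZEB1* and *ZEB2* lie below 0.6.

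Of the 10 members, 8 passed the filter on low counts and were tested. *VIM* was called lower with VAF347, where 1.71% of all genes tested were called lower. None was called higher, where the background was 0.501%. DESeq2 and limma on log2(TPM + 1) also called 0 members higher, but these 2 fits could not have called *CDH2*. DESeq2 gave *CDH2*, *SNAI1* and *SNAI2* no adjusted p, and *CDH2* did not pass the filter of that limma fit. At any fold change, an adjusted p under 0.05 was again reached by *VIM* alone, against 5.42% of all genes tested. An unadjusted p under 0.05 was found for 5 of 8, against 20.8% of all genes tested, and 2 of these, *CDH2* and *ESRP1*, were higher with VAF347, against 8.87%. The groups did not overlap for 3 of the 8, against 27.3% of all genes tested. *CDH1* and *VIM* were the lower ones, against a background of 14.8%, and *CDH2* the higher one, against 12.5%. The median log2 fold change over the 8 tested members was -0.13, beside 0.01 over all genes tested. In bulk RNA, fewer cells that express a gene and less RNA per cell cannot be told apart.

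*VIM* encodes vimentin, the type III intermediate filament protein of mesenchymal cells, which some cultured epithelial cells also make. The gene lies at chr10:17228241-17237593 on the plus strand (ENSG00000026025.16, GRCh38). Under CRE alone its counts were 92, 76 and 82, and with VAF347 added they were 37, 37 and 19. In CPM these were 9.50, 7.44 and 7.65 with CRE and 4.15, 3.88 and 1.89 with CRE + VAF347. All 3 treated libraries lay below all 3 CRE libraries, and CRE + VAF347 replicate 3 was lowest. The mean fell from 8.20 ± 1.14 to 3.31 ± 1.23 CPM (SD, n = 3), with a log2 fold change of -1.32 (standard error 0.24, 95% interval -1.85 to -0.79, adjusted p = 0.00949 by the edgeR quasi-likelihood test), or 2.49-fold lower. By size of change *VIM* ranked 68 of the 15373 genes tested, and its level was at percentile 23.7 of them. A rank by fold does not weigh counting error: *CDH2*, at percentile 8.55, ranked 178 without passing the test.

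The *VIM* call held with each library left out, at log2 fold changes from -1.52 to -1.03 and edgeR adjusted p from 0.00252 to 0.0360. The call was lost when limma was run on TPM, with -1.07 and an adjusted p of 0.0848 on log2(TPM + 1) and -1.34 and an adjusted p of 0.0975 on log2(TPM + 0.1). Folds on these scales come out smaller for low genes with the larger pseudocount. Over the 15 alternatives the adjusted p for *VIM* ran from 1.80e-09 to 0.292. *VIM-AS1*, a transcript from the opposite strand that overlaps *VIM*, was looked up because of that overlap. It had 4, 7 and 6 counts with CRE and 0, 1 and 2 with CRE + VAF347. Its mean CPM with CRE was 1.75-fold above that of a floor of 3 counts per treated library. That figure takes the CRE mean as exact and leaves out the spread between libraries, so it is not a lower bound. Whether counting used strand is not given in the sources used here, so reads of *VIM* and *VIM-AS1* may not be fully separated.

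Set against epithelial genes of the same library, *VIM* was lower with VAF347. The TPM ratio of *CDH1* to *VIM* was 37.5, 45.9 and 55.6 with CRE and 76.2, 89.9 and 163 with CRE + VAF347. For *KRT8*, the keratin partner of *KRT18* in simple epithelium, the ratio to *VIM* was 170, 216 and 224 with CRE and 381, 389 and 828 with VAF347. Neither ratio overlapped between groups, but both reuse the *VIM* values above, so they are not separate evidence. *KRT8* itself had 1735 ± 38.3 and 1671 ± 69.1 CPM (SD, n = 3), with a log2 fold change of -0.05 (standard error 0.06, edgeR adjusted p = 0.647).

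Promoter sequence is shown for *VIM* and *CDH2*, the tested members with the largest fitted differences in each direction, as the 250 bases before the annotated start (RefSeq, GRCh38.p14). Capitals mark the E-box CANNTG, of which CACCTG and CAGGTG are the forms bound by SNAIL and ZEB proteins, and the AhR core GCGTG, each searched on both strands. The windows are chr10:17227991-17228240 on the plus strand for *VIM* and chr18:28177131-28177380 on the minus strand for *CDH2*.
VIM: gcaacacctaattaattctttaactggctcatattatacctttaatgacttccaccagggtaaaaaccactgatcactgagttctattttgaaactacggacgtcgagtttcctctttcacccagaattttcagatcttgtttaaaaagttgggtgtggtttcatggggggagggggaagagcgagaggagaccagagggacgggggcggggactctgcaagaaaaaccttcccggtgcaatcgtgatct
CDH2: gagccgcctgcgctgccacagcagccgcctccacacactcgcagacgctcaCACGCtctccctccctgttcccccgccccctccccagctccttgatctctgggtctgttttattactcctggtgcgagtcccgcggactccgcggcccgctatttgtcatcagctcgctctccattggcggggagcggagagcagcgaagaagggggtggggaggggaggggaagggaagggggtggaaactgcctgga
The *VIM* window held 0 E-boxes and 0 AhR cores. The *CDH2* window held 0 E-boxes and 1 AhR core, as CACGC at position -199 from the start. A second *CDH2* window in the table, chr18:28036642-28036891 on the minus strand and not printed, held 1 E-box, as CAGATG at position -97, and 0 AhR cores. Of 35116 windows of this length, 61.8% held CANNTG, 17.5% held CACCTG or CAGGTG and 32.2% held GCGTG. These matches describe the letters of the window only. Of the members, 4 had an entry in the promoter table: *VIM*, *CDH2*, *ZEB1* and *ZEB2*.

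*CDH2* encodes N-cadherin, the adhesion molecule that stands in for E-cadherin in the cadherin switch of EMT. The gene lies at chr18:27932879-28177946 on the minus strand. Its 3 CRE libraries had 15, 10 and 11 counts, and the CRE + VAF347 libraries had 29, 16 and 21. The groups did not overlap, but treated replicate 2 lay only 1 count above CRE replicate 1. In CPM the mean was 1.18 ± 0.32 with CRE and 2.34 ± 0.82 with VAF347 (SD, n = 3), giving a log2 fold change of 0.97 (standard error 0.33, 95% interval 0.24 to 1.71) that did not pass the test (adjusted p = 0.123 by the edgeR quasi-likelihood test). When CRE + VAF347 replicate 1 was left out, the log2 fold change was 0.67. The TPM ratio of *CDH1* to *CDH2* was 323, 496 and 648 with CRE and 138, 306 and 226 with VAF347, with no overlap between groups. It reuses the *CDH2* values above, so it is not separate evidence.

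*CDH1* encodes E-cadherin, whose loss is a hallmark of EMT. It lies at chr16:68737292-68835537 on the plus strand (ENSG00000039068.20), and its level was at percentile 99.3 of the genes tested. The 3 CRE libraries had 751, 780 and 891 CPM and the CRE + VAF347 libraries had 704, 712 and 719. In CPM the treated libraries were all lower and much closer to each other than the CRE libraries, but in TPM the groups overlapped. The log2 fold change was -0.18 (standard error 0.07, 95% interval -0.34 to -0.03), which did not pass the test (adjusted p = 0.173 by the edgeR quasi-likelihood test). CRE replicate 3 was highest, and without it the log2 fold change was -0.10.

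*EPCAM*, at chr2:47345158-47387601, had 363, 333 and 330 CPM with CRE and 350, 347 and 347 with CRE + VAF347. The treated values lay inside the CRE range. The log2 fold change was 0.03 (standard error 0.06, 95% interval -0.11 to 0.16, edgeR adjusted p = 0.848), and on TPM it was -0.069, so its sign is not settled. *ESRP1* had 127, 124 and 139 CPM with CRE and 152, 139 and 147 with CRE + VAF347. The groups met at 139 CPM, where the lowest treated library was just under the highest CRE library. The log2 fold change of *ESRP1* was 0.17 (standard error 0.07, 95% interval 0.02 to 0.31) and did not pass the test (adjusted p = 0.175 by the edgeR quasi-likelihood test). When CRE replicate 3 was left out it was 0.22 with an edgeR adjusted p of 0.0221, under the fold threshold but past that of p, and over the 15 alternatives the highest adjusted p was 0.779. With a GC offset the log2 fold change of *ESRP1* was 0.11 (edgeR adjusted p = 0.423) and that of *CDH1* was -0.17 (edgeR adjusted p = 0.229). With genes binned by transcript GC, the median log2 fold change was 0.11 in the lowest bin and -0.087 in the highest. Medians of the gene lists are given without this offset.

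**Figure D2:**
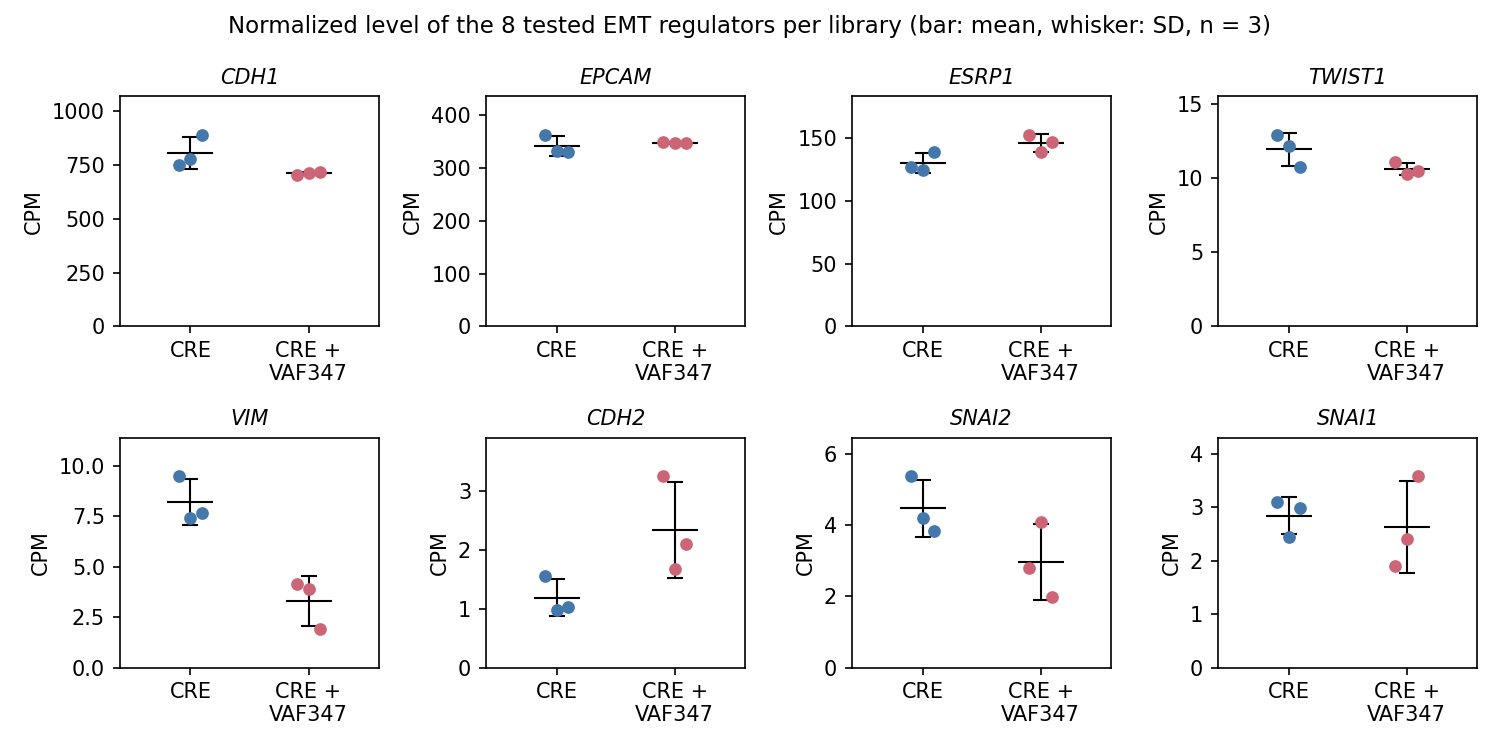
CPM of the 8 tested EMT regulators in each library, with axes from 0; points are libraries (blue CRE, red CRE + VAF347), bars are group means and whiskers are SD (n = 3). The red points of *VIM* (1.89 to 4.15) lie below its blue points (7.44 to 9.50), the red points of *CDH2* lie above its blue ones, and those of *EPCAM* lie inside the blue range.

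Among the 5 member transcription factors, *TWIST1*, a basic helix-loop-helix factor at chr7:19020991-19117636, had the highest TPM. It had 125, 124 and 115 counts with CRE and 99, 98 and 105 with CRE + VAF347. In CPM the groups overlapped, with means of 11.9 ± 1.11 and 10.6 ± 0.43 (SD, n = 3). The log2 fold change was -0.17 (standard error 0.12, 95% interval -0.43 to 0.09, edgeR adjusted p = 0.460).

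*SNAI2*, a zinc finger repressor that is also made by normal basal epithelial cells, had 5.37, 4.21 and 3.82 CPM with CRE and 2.80, 4.09 and 1.99 with CRE + VAF347. Treated replicate 2 lay among the CRE libraries, and the other two lay below them. The log2 fold change was -0.59 (standard error 0.26, 95% interval -1.17 to -0.02) and did not pass the test (adjusted p = 0.228 by the edgeR quasi-likelihood test). *SNAI1*, its short-lived relative, at chr20:49982980-49988886, had 30, 25 and 32 counts with CRE and 17, 23 and 36 with CRE + VAF347. The treated libraries held both the lowest and the highest value. Its log2 fold change was -0.10 (standard error 0.26, 95% interval -0.68 to 0.48, edgeR adjusted p = 0.870), and without CRE + VAF347 replicate 1 it was 0.072. Both intervals reach past the fold threshold in the lower direction.

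*ZEB1* and *ZEB2*, the zinc finger E-box repressors that form a double-negative loop with the miR-200 family, were barely detected. *ZEB1* had 1, 0 and 1 counts with CRE and 2, 1 and 1 with CRE + VAF347. *ZEB2* had 1, 0 and 2 counts with CRE and 2, 2 and 1 with CRE + VAF347. All values lay at or under the floor of 3 counts, which was 0.280 to 0.336 CPM, so neither gene was tested and no fold is given. A difference between groups was not detectable at this depth. *ZEB1-AS1*, antisense to *ZEB1* and named because of the overlap, had 31, 21 and 16 counts with CRE and 15, 11 and 17 with CRE + VAF347 (log2 fold change -0.56, edgeR adjusted p = 0.371).

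The microRNAs that target *ZEB1* and *ZEB2* are shown because their seeds define that loop (RefSeq, GRCh38.p14). Capitals mark the seed, bases 2 to 8. miR-200c and miR-141 lie at chr12:6963742-6963764 and chr12:6964155-6964176, and miR-205 at chr1:209432166-209432187, all on the plus strand.
hsa-miR-200c-3p: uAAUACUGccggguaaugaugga
hsa-miR-200b-3p: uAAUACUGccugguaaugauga
hsa-miR-429: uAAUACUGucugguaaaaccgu
hsa-miR-141-3p: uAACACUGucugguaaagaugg
hsa-miR-200a-3p: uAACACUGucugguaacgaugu
hsa-miR-205-5p: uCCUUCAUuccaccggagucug
The first 3 share a seed, miR-141 and miR-200a share another, and miR-205 has its own. Mature microRNAs are not measured by poly(A)-enriched libraries, so only host transcripts could be read. *MIR205HG*, the miR-205 host, had 210, 243 and 210 counts with CRE and 138, 129 and 166 with CRE + VAF347. All treated libraries were lower, and the gene was called with a log2 fold change of -0.51 (standard error 0.11, edgeR adjusted p = 0.0238). In TPM, however, the means were 41.1 and 38.7, limma gave -0.03 with an adjusted p of 0.984, and the call held in 6 of the 15 alternatives. *MIR200CHG*, the host of miR-200c and miR-141, named although not tested, had 7, 3 and 2 counts with CRE and 2, 7 and 6 with CRE + VAF347. Of the 16 host and antisense genes listed, 3 were tested, 1 was called lower and 0 higher, with a median log2 fold change of -0.56.

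**Figure D3:**
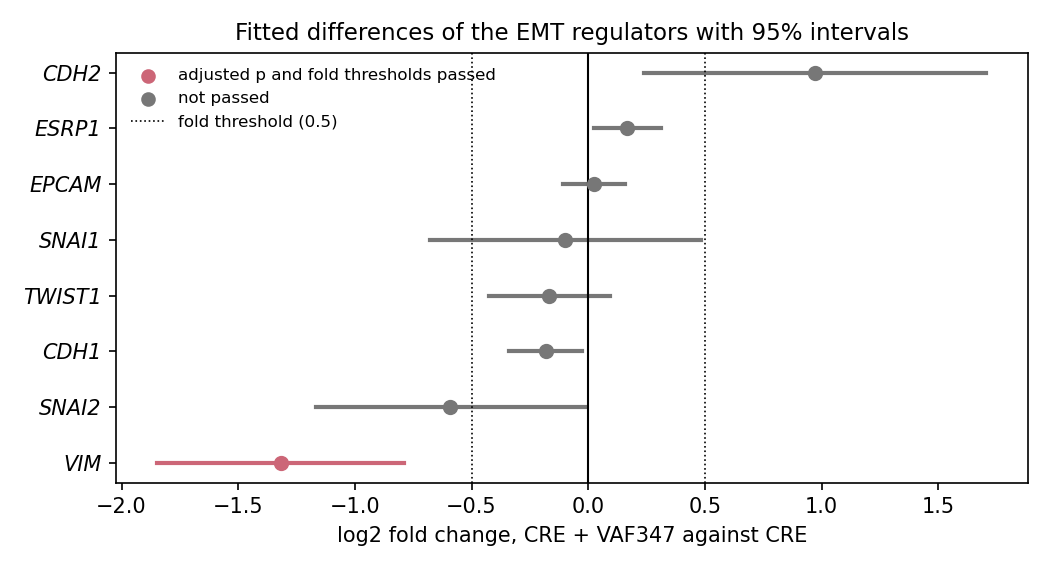
Log2 fold change of the 8 tested EMT regulators, CRE + VAF347 against CRE, from the edgeR fit; points are estimates, lines are 95% intervals and dotted lines mark the fold threshold of 0.5 in each direction. *VIM* (-1.32, red) passed both thresholds, and the intervals of *CDH2*, *ESRP1*, *CDH1* and *SNAI2* exclude 0 without passing after adjustment.

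Other EMT genes were read from fixed lists, which were chosen with earlier results of these data known. Each is described by its counts beside the 1.71% lower and 0.501% higher calls of all genes tested. Of 18 other EMT transcription factors, 12 were tested, 2 were called lower and 0 higher, with a median log2 fold change of -0.18. *SOX4*, an SRY-box factor with roles in TGF-beta responses, fell from 167 ± 5.40 to 90.0 ± 7.46 CPM (SD, n = 3), with a log2 fold change of -0.89 (standard error 0.07, edgeR adjusted p = 5.89e-05), and was called in 15 of 15 alternatives. *SOX9*, an airway progenitor factor that cooperates with *SNAI2*, fell from 90.4 ± 14.2 to 50.8 ± 2.73 CPM (log2 fold change -0.83, edgeR adjusted p = 0.000907). Its call was lost on TPM (limma adjusted p = 0.0747 on log2(TPM + 1), and 0.247 at most over the 15 alternatives).

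Of 17 factors that maintain the epithelial state, 13 were tested, 1 was called lower and 0 higher, with a median of -0.12. The called gene was *ELF3*, an epithelium-specific ETS factor, which fell from 477 ± 3.88 to 327 ± 15.6 CPM (SD, n = 3; log2 fold change -0.54, edgeR adjusted p = 0.000508). Its call held in 12 of 15 alternatives. It was lost with a GC offset, at -0.48 and under the fold threshold, and with limma on log2(TPM + 1), filtered or not, with adjusted p up to 0.111. Of 24 corepressors and turnover factors of SNAIL and ZEB, 23 were tested. An unadjusted edgeR p under 0.05 was found for 7, against 20.8% of all genes tested. The 23 gave 0 calls by edgeR, DESeq2 and limma on TPM, with a median of -0.01. *LOXL2*, a lysyl oxidase that partners SNAI1 and the highest of them in CPM, which is not corrected for length, had 441 ± 33.5 and 341 ± 18.0 CPM (SD, n = 3), with a log2 fold change of -0.37 (edgeR adjusted p = 0.0114) short of the fold threshold. At any fold 3 of the 23 passed by edgeR, 2 lower, *LOXL2* among them, and 1 higher, against 5.42% of all genes tested.

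Junction genes around E-cadherin and EPCAM showed single calls, all lower. Among 14 other cadherins 6 were tested and 1 was called, *CDH5*, with a median of -0.11. *CDH5*, the endothelial VE-cadherin, had 18.4, 16.8 and 17.5 CPM with CRE and 10.4, 9.12 and 9.95 with CRE + VAF347 (log2 fold change -0.84, edgeR adjusted p = 0.00119), and limma on log2(TPM + 1) gave an adjusted p of 0.110, the range over alternatives reaching 0.272. Of the cadherin-catenin complex 12 of 16 genes were tested. None was called by edgeR, DESeq2 or limma on TPM, and the median was -0.14. An unadjusted edgeR p under 0.05 was found for 7, against 20.8% of all genes tested. At any fold 1 of the 12 passed by edgeR, lower, against 5.42% of all genes tested. *CTNNA1*, alpha-catenin and the highest of the list in CPM, had 596 ± 60.2 and 671 ± 8.70 CPM (SD, n = 3; log2 fold change 0.17, edgeR adjusted p = 0.210). All 13 partners and processing factors of EPCAM were tested, 1 was called lower and 0 higher, with a median of -0.11. The tight junction gene *CLDN1* fell from 210.1 ± 17.1 to 114.5 ± 3.95 CPM (SD, n = 3; log2 fold change -0.88, standard error 0.07, edgeR adjusted p = 6.10e-05) and was called in 15 of 15 alternatives.

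Splicing was read at the level of the regulators, their targets and the effective transcript length. Of 16 alternative splicing regulators of EMT, all tested, 2 had an unadjusted edgeR p under 0.05, against 20.8% of all genes tested. None of the 16 was called by edgeR, DESeq2 or limma on TPM, and the median was -0.04. The highest in CPM, *HNRNPA1*, an RNA-binding protein that represses exons, had 1299 ± 83.8 and 1340 ± 40.8 CPM (SD, n = 3; log2 fold change 0.04, edgeR adjusted p = 0.742). The paralog *ESRP2*, named for its kinship to *ESRP1*, had 67.7 ± 1.09 and 74.1 ± 1.55 CPM (SD, n = 3; log2 fold change 0.13, edgeR adjusted p = 0.243). All 28 genes known to be spliced by ESRP proteins were tested, 1 was called lower and 0 higher, with a median of -0.06. *CSF1*, a macrophage growth factor, fell from 6.58 ± 0.43 to 3.27 ± 0.60 CPM (SD, n = 3; log2 fold change -1.01, edgeR adjusted p = 0.00896), but without CRE + VAF347 replicate 3 its edgeR adjusted p was 0.0517, and it reached 0.572 over the alternatives.

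The effective length of a gene, estimated as counts over TPM relative to the library median, moves when its isoform mix moves. It was tested with limma over 11458 genes, of which 0% passed at an adjusted p under 0.05 and 7.49% had an unadjusted p under 0.05. Of 27 ESRP-spliced genes tested, 0 passed and 1 had an unadjusted p under 0.05, *LRRFIP2*, with a log2 difference in length of 0.16 (limma adjusted p = 0.644). The differences over these genes ran from -0.21 to 0.16, and their median size was 0.039, beside 0.041 for all genes tested. *FGFR2*, whose mutually exclusive exons are the classical ESRP target and which is named for that reason, had a log2 length difference of 0.00 (95% interval -0.11 to 0.11). *ESRP1* itself had 0.00 (95% interval -0.06 to 0.06). The 4 members that could be tested, *CDH1*, *EPCAM*, *ESRP1* and *TWIST1*, gave 0 calls and 0 unadjusted p under 0.05, with a lowest adjusted p of 0.727. Length at the level of genes does not resolve exons of similar size, so exon use was not measured directly.

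Mesenchymal effector genes held the most edgeR calls of the EMT lists. Because earlier results of these data were known when the list was chosen, its share of calls is a description and not a test. Of 46 listed, 31 were tested, 11 were called lower (35.5%) and 0 higher, and 29 of 31 had negative log2 fold changes. Their median was -0.30, beside 0.01 over all genes tested. At any fold 15 passed, against 5.42% of all genes tested. DESeq2 called 10 of them lower and 0 higher, limma on log2(TPM + 1) called 6 lower, and limma without a filter called 0. *FN1*, which encodes fibronectin of the extracellular matrix, had 3383 ± 360 CPM with CRE and 1588 ± 193 with VAF347 (SD, n = 3), giving a log2 fold change of -1.09 (standard error 0.10, edgeR adjusted p = 0.000143). The matrix glycoprotein *TNC* fell from 836 ± 86.4 to 418 ± 46.9 CPM (SD, n = 3; edgeR adjusted p = 0.000179). *DKK1*, a secreted WNT inhibitor, fell from 46.6 ± 3.75 to 24.5 ± 1.43 CPM (log2 fold change -0.93), and *IGFBP3*, a binding protein of insulin-like growth factors, from 2149 ± 193 to 1146 ± 223 CPM (log2 fold change -0.91). Also called, and given here to account for the count, were *MYL9*, *CALD1*, *CCN2*, *TGFBI*, *TAGLN* and *COL5A1*. The calls of *FN1*, *TNC*, *DKK1*, *IGFBP3* and *MYL9* held in 14 of the 15 alternatives. Those of *CALD1* held in 12, *CCN2* and *TGFBI* in 11, *COL5A1* in 10 and *TAGLN* in only 6. The study itself picks out *IGFBP3* and, among the EMT inputs, *TGFB2* in these libraries, so they are not independent evidence of a direction. Matrix, secreted and actin-binding genes are among them, but *POSTN*, *CDH11*, *PDGFRA*, *DCN* and *LUM*, typical of fibroblasts, had 0 counts in every library.

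The intermediate filament partners of vimentin gave 0 calls among 12 tested of 16 by edgeR, DESeq2 and limma on TPM, with a median of -0.04. An unadjusted edgeR p under 0.05 was found for 5, against 20.8% of all genes tested. At any fold 2 of the 12 passed by edgeR, both lower, against 5.42% of all genes tested. Signals that drive EMT had calls in both directions. Of 32 inputs of the TGF-beta, NOTCH, WNT and growth factor pathways, 27 were tested, 1 was called lower and 3 higher, with a median of -0.04. *TGFB2*, a TGF-beta ligand, fell from 31.8 ± 1.53 to 17.4 ± 2.08 CPM (SD, n = 3; log2 fold change -0.87, edgeR adjusted p = 0.000649). The cytokine *IL6* rose from 5.55 ± 1.03 to 11.4 ± 1.48 CPM (SD, n = 3; log2 fold change 1.05, edgeR adjusted p = 0.00468). The study reports the other direction by RT-PCR, with IL-6 lowered by VAF347 in CRE-exposed HBECs. The reason for this difference was not tested. The NOTCH ligand *JAG1* and the NOTCH target *HES1* rose by 0.65 and 0.52 on the log2 scale (edgeR adjusted p = 0.0343 and 0.0101), calls that held in 5 and 9 of the 15 alternatives. The plot of fold changes by list shows the leftward shift of the mesenchymal effectors.

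**Figure D4:**
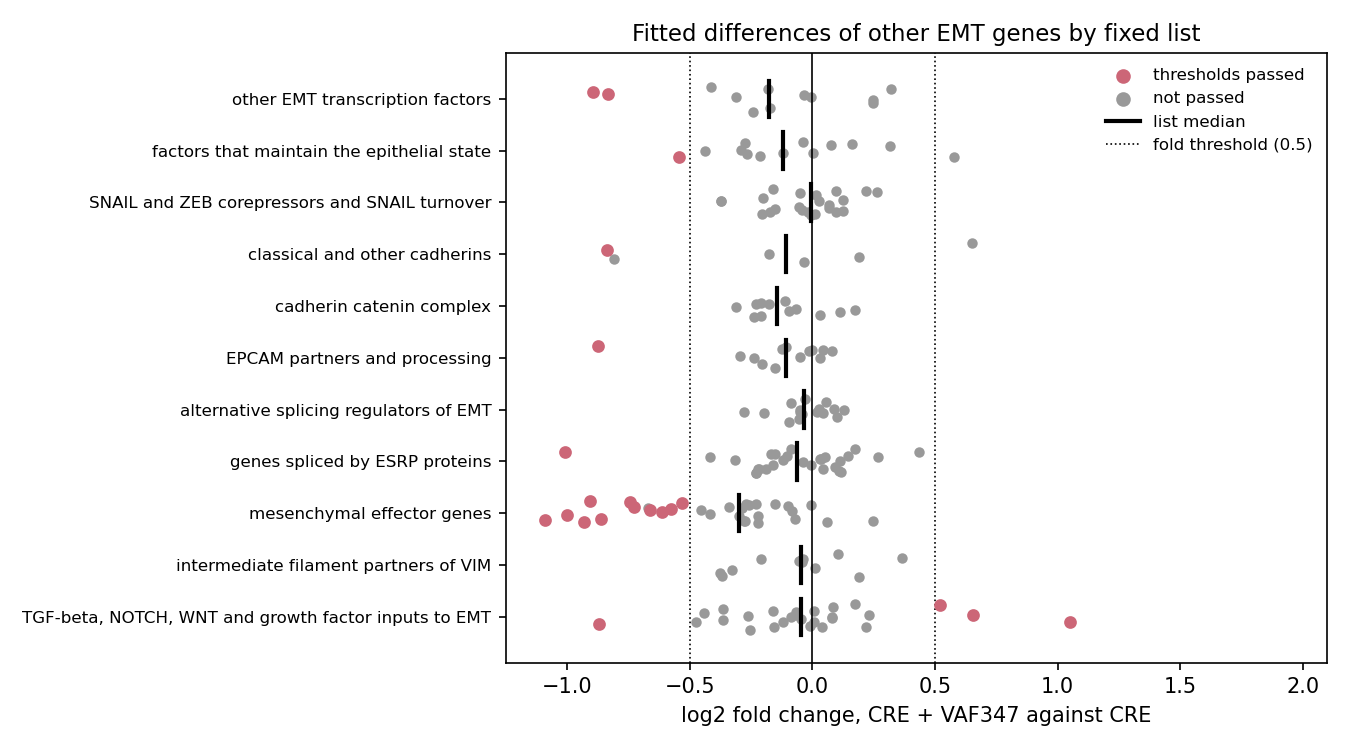
Log2 fold change of each tested gene in 11 fixed lists, CRE + VAF347 against CRE; red points passed the adjusted p and fold thresholds, grey points did not, black bars are list medians and points are spread vertically at random. The mesenchymal effector genes hold 11 red points, all at negative values, with a median of -0.30.

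Markers of other cell types were read beside these results, and their part in them was not tested. Of 10 fibroblast markers, all of them also in the mesenchymal list, 4 were tested. None was called by edgeR, DESeq2 or limma on TPM. An unadjusted edgeR p under 0.05 was found for 1, against 20.8% of all genes tested. The summed level of the 10 was 43.2 to 51.3 CPM with CRE and 39.9 to 43.3 with CRE + VAF347, and *DCN*, *LUM*, *PDGFRA* and *POSTN* were at 0. The highest of them in CPM, *COL1A1*, had 40.2 ± 4.43 and 37.5 ± 1.68 CPM (SD, n = 3), most of the sum. *COL1A2*, not tested and named because all treated libraries were lower, had 11, 10 and 8 counts with CRE. With CRE + VAF347 it had 3, 2 and 3. Of 6 smooth muscle markers 2 were tested and 0 called by the same 3 tools, with 0 at an unadjusted p under 0.05. They summed to 8.86 to 12.6 CPM with CRE and 12.1 to 13.3 with VAF347, most of it *SYNPO2*. Of 7 endothelial markers 3 were tested and 2, *CDH5* and *VWF*, were called lower. The *VWF* call was lost without CRE + VAF347 replicate 2 or 3 (edgeR adjusted p up to 0.0633) and with limma on unfiltered TPM, and DESeq2 gave it no adjusted p. Their sum was 27.6 to 30.2 CPM with CRE and 18.2 to 22.2 with VAF347, while *PECAM1* had 1, 0 and 3 counts with CRE and 0 with VAF347. Of 10 immune markers 3 were tested and *CSF1R* was called lower, a call that held in 8 of 15 alternatives and was lost in 4 of the 6 that left out a library (edgeR adjusted p up to 0.126). Their sum was 49.1 to 60.7 CPM with CRE and 33.6 to 43.5 with VAF347, and *CD3D*, *MS4A1* and *FCGR3A* were at 0. The 13 bronchial markers, which include *CDH1* and *EPCAM*, summed to 6447 to 6672 CPM with CRE and 6109 to 6250 with VAF347. Of these 11 were tested and 0 were called by the same 3 tools. An unadjusted edgeR p under 0.05 was found for 5, against 20.8% of all genes tested. At any fold 3 passed by edgeR, against 5.42% of all genes tested. All 3 were lower and are named for that reason: *KRT19* (log2 fold change -0.38), *SFN* (-0.36) and *KRT7* (-0.29).

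The genes whose pattern over the 6 libraries was most like that of *CDH1* were *DOT1L* (Pearson's r = 0.996), *FAT1* (0.996) and *ZNF343* (0.995), of 11076 genes compared. For *VIM* they were *KLF11* (0.994), *NRDE2* (0.992) and *PTPRR* (0.992), of 11077 genes. These are descriptions over 6 libraries that share depth and treatment, and 188 and 101 genes had an r above 0.95 with *CDH1* and *VIM*.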

How the data were processed

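Poly(A)-enriched RNA of 6 HBEC libraries was sequenced as read pairs. The authors estimated counts per gene with Salmon, so the deposited values are expected (estimated) counts, not scaled to depth, and TPM, also deposited, adds up to 1000000 in each library. The submitters' processing notes name hg38; the Salmon version, the annotation and the use of strand are not given in the sources used here. All 61228 gene names match GENCODE 44, from which positions on GRCh38 were taken. The authors' deposited DESeq2 table (p-values, fold changes and averaged normalized counts) was not used.

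Groups came from the sample labels. Estimated counts were rounded, and edgeR 4.0.16 was run under R 4.3.3 (filterByExpr, TMM, quasi-likelihood test, Benjamini-Hochberg over all 15373 genes tested). The standard error is the log2 fold change divided by the square root of F. Effective length was tested with limma 3.58.1 in genes with at least 50 counts in every library. Alternatives were DESeq2 1.42.0 size factors and Wald test, no filter, a replicate block, a minimum of 10 counts, limma on log2(TPM + 1) or log2(TPM + 0.1) for mean TPM of at least 1, limma without that filter, and each library left out. A GC offset and the alternatives for the mesenchymal list were added after the data were seen. The edgeR fit with and without the replicate block, the DESeq2 Wald test, limma on log2(TPM + 1) and limma on length were run on simulated data. The other alternatives were not. The members and lists were chosen with earlier results of these data known. Named genes are all members, up to 4 called genes per list (the largest changes) or else its highest gene by CPM, and the 3 genes most like *CDH1* and *VIM*. Any others are named with the reason given, after their values were seen. Some genes of the lists are not reported here by name. Groups of 3 allow no exact permutation p under 0.1, so p-values rest on models across all genes.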

Additional observations from a re-analysis of the deposited data

How the results depend on the processing

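The *VIM* call was lost in the limma fits on TPM, which change the unit, the test and the filter together. They gave *VIM* -1.07 with a pseudocount of 1 (adjusted p = 0.0848), -1.34 with 0.1 (0.0975) and -1.07 without a filter (0.292), so that 0 members were called lower in these 3 fits and 0 passed at any fold, against 1 otherwise. With each library left out, 1 member was called lower each time, and 1 to 2 passed at any fold, the second being *ESRP1* without CRE replicate 3. *EPCAM* turned to -0.069 in the 3 TPM fits, and *SNAI1* ran from -0.40 to 0.072 with libraries left out, positive only without CRE + VAF347 replicate 1. *CDH2* has no value in the filtered TPM fits, and DESeq2 gave *CDH2*, *SNAI1* and *SNAI2* no adjusted p. Over all genes, calls lower (263) and higher (77) became 411 and 187 without the filter, 50 and 34 on log2(TPM + 1), 52 and 32 on log2(TPM + 0.1), 12 and 20 on unfiltered TPM, and 143 to 270 and 58 to 110 with each library left out, the fewest without CRE + VAF347 replicate 3. The mesenchymal list (11) held 6, 6 and 0 calls in the 3 TPM fits. The list of epithelial-state factors (1) held 2 calls without the filter. Same-numbered libraries correlated at r of 0.053, 0.033 and 0.015, too weakly to pair them, although each correlated best with its own number. With the replicate block, *VIM* was -1.33 (edgeR adjusted p = 0.0109), 1 member was called lower, as without it, and 241 lower and 78 higher genes were called in all. The causes of these changes were not tested. At 8873160 to 10750283 counts per library, *ZEB1* and *ZEB2* could not be compared, and intervals of *SNAI1*, *SNAI2* and *CDH2* reach past the fold threshold.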
